A study of Mus musculus with 7 samples.

Results

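The 7 genes described here encode enzymes of cholesterol synthesis: Hmgcs1, Idi1, Fdps, Sqle, Lss, Cyp51 and Dhcr7. They were the protein-coding rows of the deposited table with these symbols, 7 of 55416 genes, matched by symbol. All 7 passed the filter on low counts, which left 17254 genes for testing. RNA was sequenced from the prefrontal cortex (PFC) of female C57BL/6 wild-type mice injected on both sides of the PFC with a recombinant adeno-associated virus (rAAV) that carried an EGFP reporter under the human synapsin promoter, which is active in neurons. Ctr libraries (n = 3) came from mice given the empty vector, Ref libraries (n = 2) from mice given the human long noncoding RNA PAXIP1-AS1 with the C allele, and Alt libraries (n = 2) from mice given the same RNA with the G allele. The sources used here state neither the age of the mice behind each library nor whether a library held tissue of a single animal, so the p-values measure only the spread between these libraries. The study describes no counterpart of PAXIP1-AS1 in the mouse genome, and the table holds no row for it, so the transgene was not checked here.

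Mammalian cells build cholesterol from acetyl-CoA through mevalonate, isoprenoid units, squalene and lanosterol. In the adult brain cholesterol is made locally, because the blood-brain barrier keeps out the cholesterol carried in plasma, and much of it lies in myelin, the sheath that oligodendrocytes wrap around axons. The genes of the pathway are controlled together by SREBP-2, a transcription factor encoded by Srebf2 that is held in the endoplasmic reticulum when sterols are plentiful and released when they run low. It acts at short promoter sequences called sterol regulatory elements (SREs), usually beside binding sites of NF-Y and Sp1.

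The promoters are shown because SREBP-2 acts at such elements. RefSeq promoters on GRCm38.p6, each with 250 bases before and 50 bases after a transcription start, were matched for 5 of the 7 genes (Hmgcs1, Idi1, Lss, Cyp51 and Dhcr7). The 250 bases before the start are printed 5′ to 3′ for the 2 enzymes with the highest and the lowest fitted difference between Alt and Ctr, with capitals for the match to the SRE letters TCACNCCAC in Hmgcs1 and for the match to the looser letters TCACNNCA in Cyp51, which holds no TCACNCCAC. The Hmgcs1 sequence lies at chr13:119690101-119690350 on the plus strand, and the Cyp51 sequence at chr5:4104698-4104947 on the minus strand.
Hmgcs1: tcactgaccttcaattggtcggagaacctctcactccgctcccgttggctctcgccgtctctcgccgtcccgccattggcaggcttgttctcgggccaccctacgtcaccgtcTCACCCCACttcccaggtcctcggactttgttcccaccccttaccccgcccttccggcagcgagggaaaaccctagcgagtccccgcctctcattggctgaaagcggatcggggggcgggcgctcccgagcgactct
Cyp51: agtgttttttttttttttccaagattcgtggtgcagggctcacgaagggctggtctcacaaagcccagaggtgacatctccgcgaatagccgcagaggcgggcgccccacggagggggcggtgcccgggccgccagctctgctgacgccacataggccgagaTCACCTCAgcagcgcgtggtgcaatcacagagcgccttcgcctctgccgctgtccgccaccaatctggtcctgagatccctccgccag

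The letters TCACNCCAC, searched on both strands of the whole 300 bases, were found in Hmgcs1 alone of the 5 matched genes, with the match starting 137 bases before the start. Over all genes with a promoter, 1.44% held them. The looser TCACNNCA, which every TCACNCCAC match also satisfies, was found in 3 of the 5 genes, against 15.7% of all genes. In Cyp51 it started 88 bases before the start, and in Dhcr7 it lay in 2 of 3 promoters. The NF-Y letters CCAAT were present in 5 of 5 genes (41.1% of all genes), and the Sp1 letters GGGCGG also in 5 of 5 (38.2%). Of 13 other enzymes of the pathway with a promoter, 0 held TCACNCCAC, 5 held TCACNNCA, 11 held CCAAT and 10 held GGGCGG. These are letter matches in a fixed window and not measured binding sites.

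By level per transcript length in the Ctr libraries, Hmgcs1 stood far above the other members. TPM, a level scaled for gene length and sequencing depth and used as the authors deposited it, averaged 219 ± 8.16 (SD, n = 3) for Hmgcs1, which makes HMG-CoA from acetyl-CoA units. Cyp51, the lanosterol demethylase, followed with 76.9 ± 8.87 TPM, and Sqle, the oxygen-using squalene epoxidase, with 47.7 ± 3.53 TPM. Idi1, which interconverts the isoprenoid building blocks, was at 34.9 ± 4.58 TPM. Dhcr7, whose product carries out a final reduction to cholesterol, was at 15.4 ± 2.88 TPM and Lss, which closes the rings to give lanosterol, at 13.2 ± 1.45 TPM. Fdps, which makes farnesyl diphosphate, came last with 0.870 ± 0.613 TPM. The ranges of Dhcr7 (12.5 to 18.3 TPM) and Lss (12.2 to 14.8 TPM) overlapped, whereas every other pair of neighbours in this order was separated in the Ctr libraries.

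The low value of Fdps cannot be read as the abundance of its transcript. Of the 1333 stretches of 50 bases in its GENCODE vM21 transcript, 86.4% also occur in transcripts of 8 other genes. The annotated gene Gm43738, which covers 89.7% of the Fdps span on the same strand, shares 77.3% of the stretches and was listed at 0 counts in every library. The processed pseudogene Gm3571 shares 40.1% and had 9 to 63 counts per library, and Gm5873 shares 18.2% and had 1 to 14 counts. How reads with several placements were counted is not given in the sources used here, and its part in the Fdps values was not tested. The longest exact stretch that Fdps and Gm3571 share within the Fdps coding sequence is printed because a short read inside it could come from either gene. It has 188 bases, runs from base 1 to base 188 of the 1059 coding bases, and lies, with introns left out, within chr3:89099394-89100809 on the minus strand (GRCm38).
Fdps and Gm3571: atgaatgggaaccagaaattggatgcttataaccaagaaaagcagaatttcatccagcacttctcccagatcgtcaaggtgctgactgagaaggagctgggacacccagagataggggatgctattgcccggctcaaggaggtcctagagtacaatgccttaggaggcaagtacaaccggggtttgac

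Idi1 shared 30.5% of its stretches, mostly with the pseudogene Gm13502 (21.3%, 9 to 27 counts per library). For Hmgcs1 the share was 13.6%, all with the antisense RNA Gm48342 (0 to 4 counts, with the strand setting of the counting not given), for Lss 4.35%, and for Cyp51 3.17%, nearly all with the neighbouring gene Akap9. Sqle and Dhcr7 shared none. The Akap9 span overlaps 166 bases of the Cyp51 span.

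**Figure D1:**
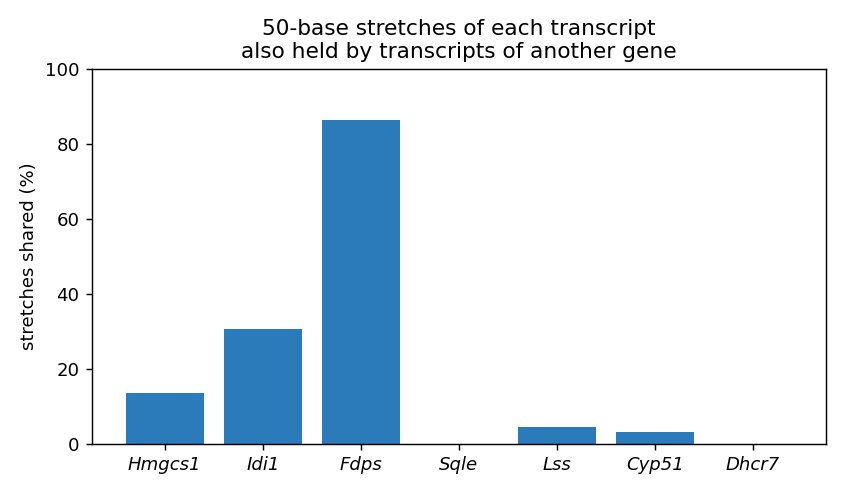
Share of 50-base stretches of each member's transcript (y axis, percent) that also occur in a transcript of another gene, by gene (x axis). Fdps stands at 86.4% and Idi1 at 30.5%, while Sqle and Dhcr7 stand at 0.

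The rows carried these identifiers and spans, in coordinates as the table gives them (genome build not stated there). Hmgcs1 (ENSMUSG00000093930.3) lies at chr13:120151915-120169796 and Idi1 (ENSMUSG00000058258.15) at chr13:8935537-8942487, both on the plus strand. Fdps (ENSMUSG00000059743.13) lies at chr3:89000895-89009266 on the minus strand. Sqle (ENSMUSG00000022351.15) lies at chr15:59186926-59203041 and Lss (ENSMUSG00000033105.13) at chr10:76367422-76392972, both on the plus strand. Cyp51 (ENSMUSG00000001467.6) lies at chr5:4131145-4154746 on the minus strand and Dhcr7 (ENSMUSG00000058454.16) at chr7:143376882-143402147 on the plus strand.

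The libraries held 16655697 to 20750857 counts in genes. Neuronal markers, 7 of 7 tested, summed to 8405 to 9786 CPM (counts scaled to library size) across libraries, with both Alt libraries, at 9786 and 9750 CPM, above the other 5. The markers went both ways in Alt versus Ctr, with 3 of 7 coefficients below 0. An unadjusted p of 0.05 was passed by 2 of 7 with a higher and 0 with a lower value, beside 9.45% and 10.3% of all genes. With each library's length trend removed, 1 passed with a higher and 2 with a lower value, and without Ctr replicate 1 or 2 none passed. Both Alt libraries lay above all others for 3 of 7 and below them for 0, beside 11.6% and 13.1% of all genes. Choroid plexus markers summed to 2.26 to 6.11 CPM and markers of striatal neurons to 34.1 to 66.8 CPM. Alt replicate 1 stood apart: its log2 CPM deviated upward with gene length, by 0.191 per doubling of length, against 0.0356 in Alt replicate 2 and -0.083 to -0.00516 in the other libraries. The chi-square per degree of freedom between replicates was 60.0 for the Alt pair and 19.0 to 25.7 for the Ctr and Ref pairs. The members had a median length of 4594 bases, near the 4051 of all genes tested, with Lss the longest at 10787.

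The comparison of Alt with Ctr addressed whether the G allele, expressed in PFC neurons, changed transcript levels against the empty vector. No enzyme of the 7 passed the test. Hmgcs1, the HMG-CoA synthase, had the highest fitted difference and Cyp51, the first step after lanosterol, the lowest, and both intervals took in 0. Levels below are CPM scaled with TMM factors, and differences are log2 differences from edgeR's quasi-likelihood test with their standard error (SE), fitted to all 17254 genes with Benjamini-Hochberg adjustment.

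Hmgcs1 was at 312, 295 and 274 CPM in Ctr replicates 1 to 3, at 284 and 298 CPM in the Ref libraries, and at 365 and 324 CPM in the Alt libraries. Both Alt libraries lay above every other library, which held for 1 of the 7 enzymes and 11.6% of all genes tested. No enzyme had both Alt libraries below every other library, a pattern of 13.1% of all genes. Ctr averaged 293 ± 18.7 CPM (SD, n = 3) and Alt 345 ± 29.4 CPM (SD, n = 2). The log2 difference Alt minus Ctr was 0.23 (SE 0.142, 95% interval -0.08 to 0.54, edgeR adjusted p = 0.386). Without Alt replicate 1 it was 0.14, with total count normalization 0.099, and in the fits to log2 FPKM 0.098 and 0.099.

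Cyp51 was at 105, 111 and 82.8 CPM in Ctr, at 94.8 and 94.3 CPM in Ref, and at 70.8 and 83.7 CPM in Alt. The groups overlapped, since Ctr replicate 3 lay below Alt replicate 2. Its log2 difference Alt minus Ctr was -0.36 (SE 0.169, 95% interval -0.73 to 0.004, edgeR adjusted p = 0.256). An unadjusted p smaller than that of Cyp51 was found for 20.3% of all genes tested. The difference moved to -0.48 (edgeR adjusted p = 0.233) without Ctr replicate 3 and to -0.49 (edgeR adjusted p = 0.0995) without Alt replicate 2, both past an unadjusted p of 0.05, and to -0.25 without Alt replicate 1. Of all genes, 16.7% passed an unadjusted p of 0.05 without Ctr replicate 3, 33.2% without Alt replicate 2 and 8.1% without Alt replicate 1.

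The enzymes of the isoprenoid and squalene steps had differences nearer 0. Sqle was at 81.6, 72.3 and 77.6 CPM in Ctr, at 78.5 and 79.0 CPM in Ref, and at 73.3 and 74.3 CPM in Alt. Both Alt libraries lay below both Ref libraries and within the Ctr range, and the log2 difference Alt minus Ctr was -0.06 (95% interval -0.38 to 0.25). Idi1 was at 32.2, 41.7 and 33.3 CPM in Ctr, at 34.8 and 32.3 CPM in Ref, and at 39.9 and 34.2 CPM in Alt, with overlap between all groups and a log2 difference Alt minus Ctr of 0.05 (95% interval -0.35 to 0.46). Fdps had 39, 9 and 18 counts in Ctr, 9 and 30 in Ref, and 19 and 14 in Alt. With so few counts its interval for Alt minus Ctr ran from -2.22 to 2.04 on the log2 scale, so a change of several fold either way was not detectable.

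Of the remaining sterol enzymes, Lss was at 40.1, 47.8 and 36.7 CPM in Ctr, at 42.3 and 47.5 CPM in Ref, and at 51.9 and 40.1 CPM in Alt. The Alt libraries spanned most of the range of the others, and the log2 difference Alt minus Ctr was 0.15 (95% interval -0.26 to 0.55). With the length trend of each library removed, the fitted value for Lss, the longest member, was -0.14, and this too missed the threshold. Dhcr7 was at 31.7, 21.8 and 25.1 CPM in Ctr, at 29.8 and 28.0 CPM in Ref, and at 24.0 and 26.3 CPM in Alt. Both Alt libraries lay inside the Ctr range, with a log2 difference of -0.06 (95% interval -0.51 to 0.39).

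**Figure D2:**
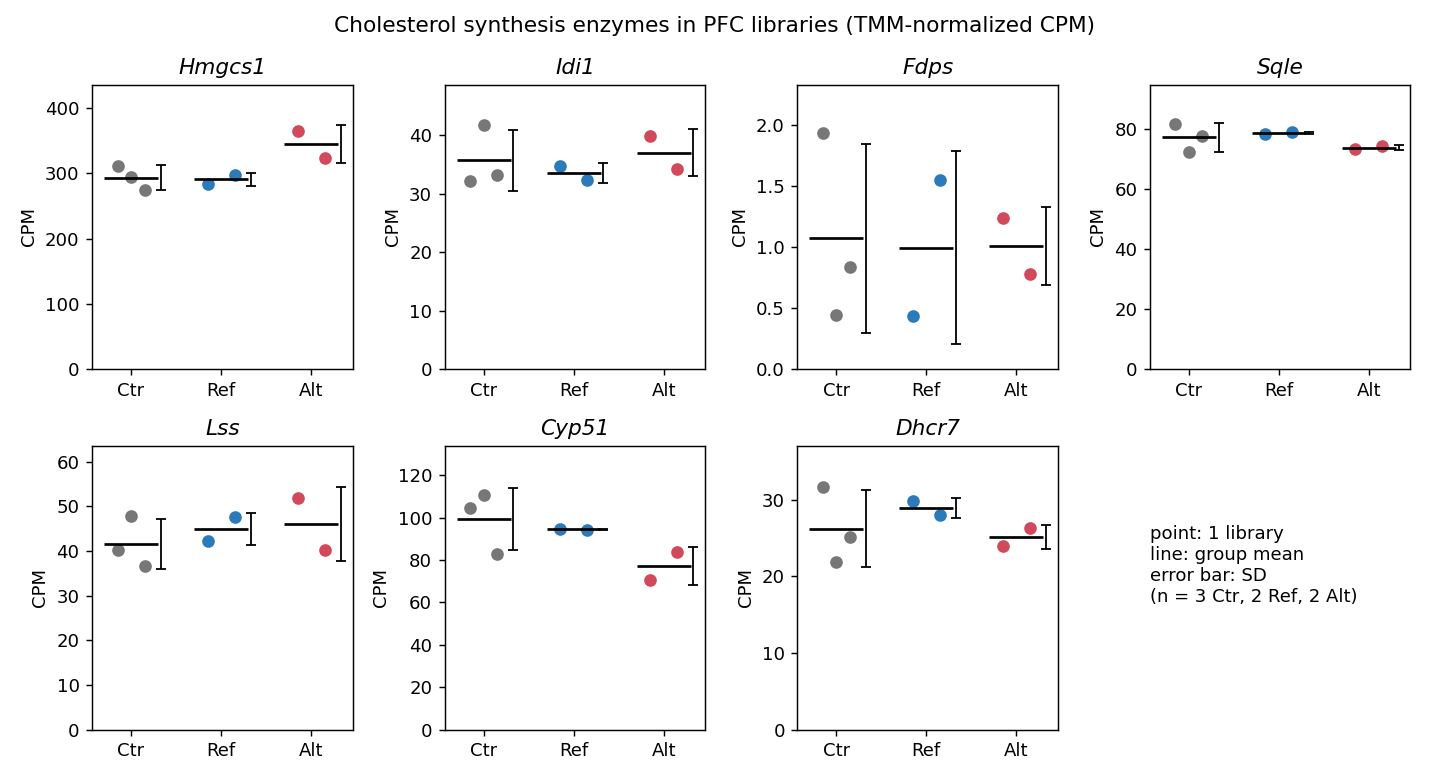
TMM-normalized CPM (y axes, linear, from 0) of the 7 enzymes in each library (points) by group (x axes), with the group mean (line) and SD (bar). Hmgcs1 in Alt (324 and 365 CPM) lies above all other libraries, and the Alt libraries of the other 6 enzymes overlap the Ctr libraries.

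Over the 7 enzymes the count past an unadjusted p of 0.05 in Alt versus Ctr was 0 of 7, where 19.8% of all genes tested passed it. At an adjusted p of 0.05 edgeR called 0 of 7 enzymes and 0% of all genes. DESeq2 called 1097 of the 17254 genes, and limma-voom 1, and neither called any of the 7 enzymes, though DESeq2 gave Fdps no adjusted p in any comparison. In 4 of 7 the coefficient was below 0, against 52.1% of all genes. The median log2 difference was -0.06 for the 7 and -0.03 for all genes tested. Without Alt replicate 2 the median for the 7 was 0.16, and without Ctr replicate 1 it was 0.10, with 3 of 7 below 0 in both. Without Alt replicate 1, 5 of 7 were below 0. Groups did not overlap for 1 of 7, Hmgcs1 with Alt higher, against 16.8% of all genes with Alt higher.

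The comparison of Alt with Ref set the G allele against the C allele, and again 0 of 7 enzymes passed an unadjusted p of 0.05, where 15.5% of all genes did. At an adjusted p of 0.05, edgeR called 0 of 7 enzymes, and 0.0058% of all genes. DESeq2 called 429 genes and limma-voom 2, with none of the 7 enzymes among them. Cyp51 had a log2 difference Alt minus Ref of -0.29 (95% interval -0.69 to 0.11), Dhcr7 of -0.20 (95% interval -0.69 to 0.29), Sqle of -0.09 (95% interval -0.44 to 0.25) and Idi1 of 0.14 (95% interval -0.30 to 0.58). Lss was at 0.03 and Fdps at 0.02. Hmgcs1 was at 0.24 (SE 0.156, 95% interval -0.10 to 0.59, edgeR adjusted p = 0.477). With the length trend removed, Hmgcs1 moved to 0.35 (edgeR adjusted p = 0.332), past an unadjusted p of 0.05. Both Alt libraries lay below both Ref libraries for Sqle, Cyp51 and Dhcr7, 3 of 7 against 26.1% of all genes, and above them for Hmgcs1, 1 of 7 against 21.6%. The coefficient was below 0 in 3 of 7, against 52.8% of all genes. That count was 4 with the length trend removed, and 5 without Alt replicate 1 or without Ref replicate 1.

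For Ref against Ctr, the comparison of the C allele with the empty vector, all 7 enzymes overlapped between the groups. In all genes tested the groups did not overlap for 10.5% with Ref lower and 12.4% with Ref higher. The log2 differences ran from -0.11 (Fdps) to 0.14 (Dhcr7, 95% interval -0.30 to 0.59), and that of Hmgcs1 was -0.01 (95% interval -0.32 to 0.30). An unadjusted p of 0.05 was passed by 0 of 7 enzymes and 3.14% of all genes, and an adjusted p of 0.05 by 0 of 7 enzymes and 0% of all genes with edgeR. DESeq2 called 6 genes and limma-voom 0, no enzyme of the 7 among them. The coefficient was below 0 in 4 of 7 enzymes and in 49.1% of all genes. The Alt values of the first comparison and the Ref values here were set against the same Ctr libraries.

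The study treated the groups as an ordinal variable, so the same counts were fitted with Ctr as 0, Ref as 1 and Alt as 2. No enzyme passed an unadjusted p of 0.05 (16.7% of all genes did, 7.89% downward and 8.85% upward) or an adjusted p of 0.05 (0% of all genes with edgeR, 596 genes with DESeq2 and 1 with limma-voom, none of the 7 among them). The log2 change per step was -0.18 for Cyp51 (95% interval -0.36 to 0.01) and 0.11 for Hmgcs1 (95% interval -0.05 to 0.27). The other 5 lay between -0.05 and 0.08.

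**Figure D3:**
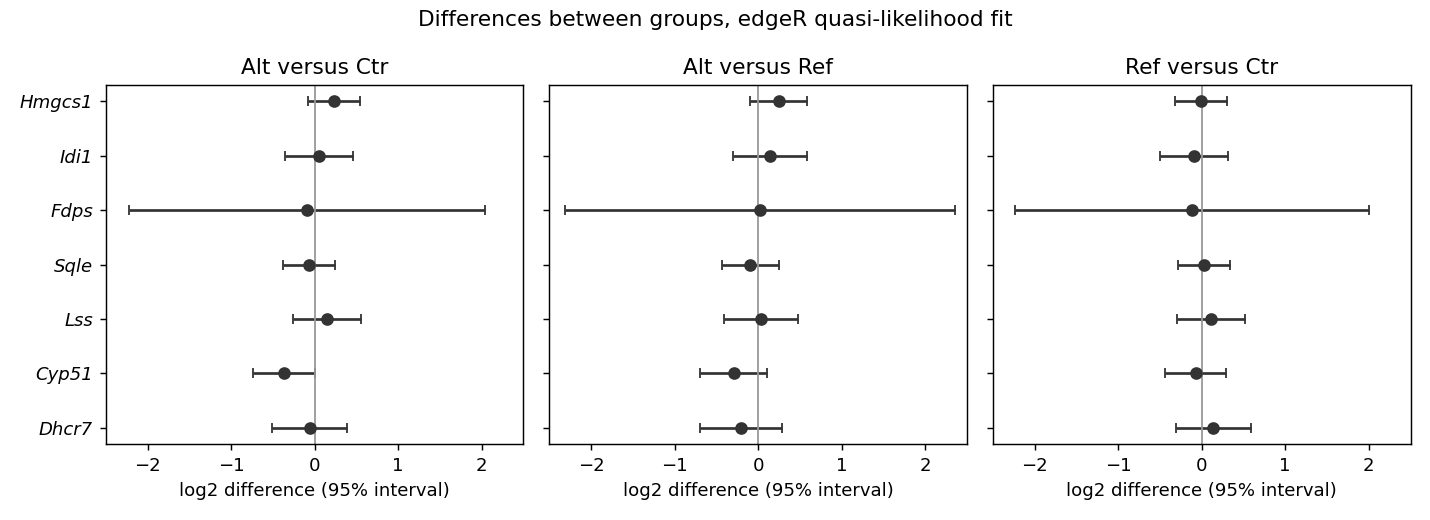
Log2 difference between groups (x axes) with its 95% interval (bars) for each enzyme (y axis) in the 3 comparisons, from the edgeR fit. Every interval takes in 0; the interval of Fdps for Alt versus Ctr runs from -2.22 to 2.04, whereas that of Sqle runs from -0.38 to 0.25.

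The correlation of each enzyme with the mean of the other 6 over the 7 libraries ran from -0.45 (Idi1) to 0.40 (Sqle). With Fdps left out, the correlation with the mean of the other 5 ran from -0.31 (Dhcr7) to 0.16 (Lss). These are descriptions over 7 libraries of 3 groups. Fdps, with few counts, swung from -0.91 to 1.01 on the log2 scale, so the genes nearest to the members' mean are given without it. Of the protein-coding genes, the nearest to the mean of the other 6 members were Cir1 (Pearson r = 0.96), Lgals3bp (0.94), Lrrc46 (0.94), Usp3 (0.94) and Pcif1 (0.93). That mean moved only from -0.11 to 0.05 on the log2 scale.

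A list of 15 other enzymes, which does not cover every step, placed the members in their pathway. Of these, 14 were tested and Idi2 was at 0 counts in every library, which allows up to 3 counts. In Alt versus Ctr 1 of 14 passed an unadjusted p of 0.05 with a lower value and 1 of 14 with a higher one, against 10.3% and 9.45% of all genes. The split was 0 and 2 with the length trend removed, 2 and 0 with the replicate block, with no low-count filter or without Ctr replicate 3, and 0 and 0 without Ctr replicate 2. None passed an adjusted p of 0.05. Pmvk, the phosphomevalonate kinase, was at 8.74, 11.9 and 8.17 CPM in Ctr, 9.38 and 7.24 CPM in Ref, and 5.98 and 5.41 CPM in Alt. Both Alt libraries lay below all others, with a log2 difference from Ctr of -0.75 (SE 0.292, edgeR adjusted p = 0.186). With the length trend removed it was -0.41 and missed an unadjusted p of 0.05, Pmvk being short at 1713 bases, and the threshold was also missed without Ctr replicate 2 or Alt replicate 2. Hsd17b7, a reductase of the demethylation steps, was at 30.4, 28.1 and 27.5 CPM in Ctr, 31.1 and 33.9 CPM in Ref, and 40.5 and 35.5 CPM in Alt. Its Alt libraries lay above all others, with a log2 difference from Ctr of 0.41 (SE 0.172, edgeR adjusted p = 0.216), and it missed an unadjusted p of 0.05 with the replicate block, with no low-count filter and without any one of Ctr replicates 2 and 3, Ref replicates 1 and 2 and Alt replicate 1. The coefficient was below 0 in 11 of 14 of these enzymes and in 6 of 14 with the length trend removed. The medians were -0.14 and 0.03. Without Ctr replicate 1 the count was 7 of 14 and the median -0.008. Without Alt replicate 1 they were 10 of 14 and -0.23. None of the 14 passed an unadjusted p of 0.05 in Alt versus Ref, where 8.83% of all genes did with a lower and 6.71% with a higher value, or in Ref versus Ctr.

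**Figure D4:**
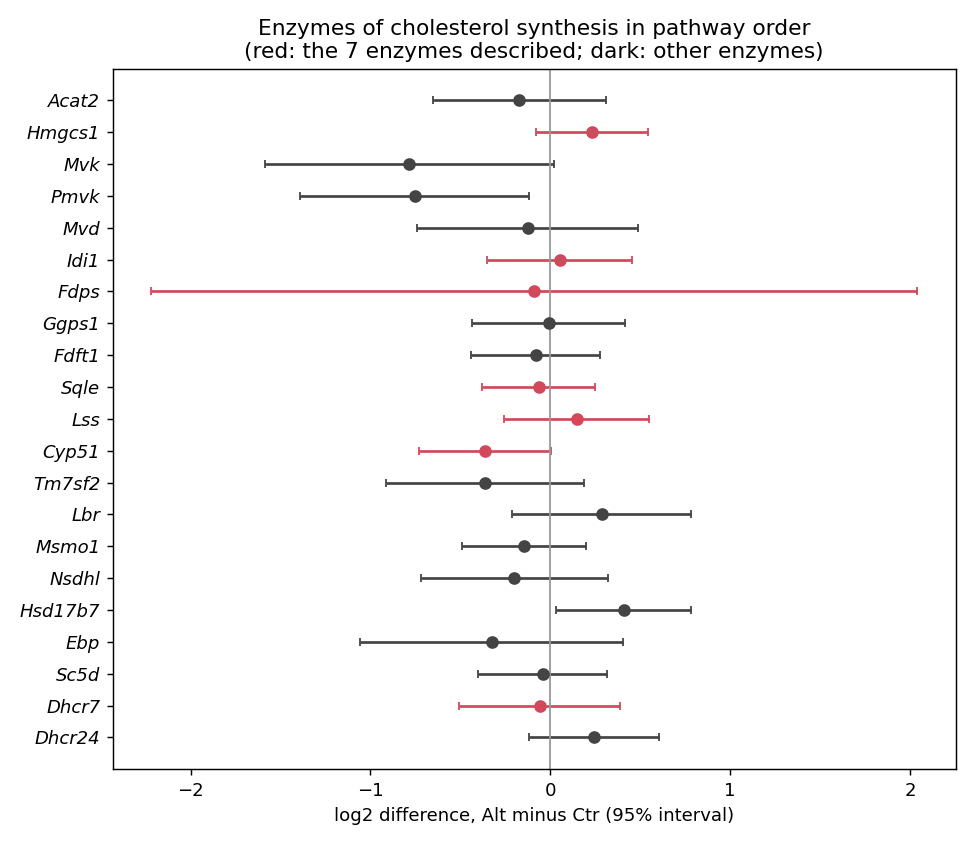
Log2 difference Alt minus Ctr (x axis) with its 95% interval for 21 enzymes of cholesterol synthesis (y axis, in the order of the steps, with Ggps1 on a side branch), the 7 described enzymes in red. The intervals of Pmvk (difference -0.75) and Hsd17b7 (0.41) exclude 0, and those of the 7 enzymes do not.

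Genes that control the pathway were read next. Srebf2, which encodes SREBP-2, was at 231, 186 and 246 CPM in Ctr, 285 and 259 CPM in Ref, and 320 and 268 CPM in Alt. All 4 libraries with either allele lay above the Ctr libraries, and the log2 difference Alt minus Ctr was 0.41 (SE 0.164, edgeR adjusted p = 0.196). It was 0.28 with the length trend removed and also 0.28 without Alt replicate 1, and 0.30 without Ctr replicate 2, and all 3 values missed an unadjusted p of 0.05. Srebf1, which encodes the isoform that drives fatty acid synthesis, was at 56.9, 53.7 and 56.2 CPM in Ctr, 86.4 and 71.5 CPM in Ref, and 56.4 and 61.6 CPM in Alt. Both Ref libraries stood above the rest, with a log2 difference of 0.51 for Ref minus Ctr (edgeR adjusted p = 1) and of -0.42 for Alt minus Ref (edgeR adjusted p = 0.282). Nr1h2, a sterol-sensing nuclear receptor, had a log2 difference Alt minus Ref of -0.70 (edgeR adjusted p = 0.237). Of the 10 control genes tested these were the ones past an unadjusted p of 0.05, 1 in Alt versus Ctr, 2 in Alt versus Ref and 1 in Ref versus Ctr. Of all genes, 9.45% passed with a higher value in Alt than in Ctr, 8.83% with a lower value in Alt than in Ref, and 2.19% with a higher value in Ref than in Ctr. Without Ref replicate 1, none of the 10 passed in Alt versus Ref or in Ref versus Ctr. In Alt versus Ref, Nr1h2 also missed the threshold with the length trend removed or without Alt replicate 2, and Srebf1 with the replicate block or without Alt replicate 1.

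Among 12 genes of sterol transport and turnover, 3 passed an unadjusted p of 0.05 in Alt versus Ctr, each higher in Alt: Lrp1, a lipoprotein receptor (log2 difference 0.82), Npc1, which moves cholesterol out of lysosomes (0.59), and Soat1, which esterifies it (0.52). That is beside 9.45% of all genes. Their adjusted p in edgeR were 0.120, 0.134 and 0.151. Lrp1 was at 359, 372 and 494 CPM in Ctr, 570 and 545 CPM in Ref, and 889 and 557 CPM in Alt. Alt replicate 1 was the highest library, and the other Alt library lay between the Ref libraries. These are long genes (17717, 11317 and 9791 bases), and with the length trend removed the log2 differences were 0.31, 0.27 and 0.27, and without Alt replicate 1 they were 0.45, 0.31 and 0.33. Under either setting Lrp1 alone of the 3 passed an unadjusted p of 0.05, and Soat1 also missed it with the replicate block. In Ref versus Ctr, Lrp1 and Npc1 were the 2 of 12 that passed an unadjusted p of 0.05, higher in Ref by 0.45 and 0.52 on the log2 scale, beside 2.19% of all genes. Neither passed without Ctr replicate 1 or without Ref replicate 2, Lrp1 also not without Ctr replicate 2 or Ref replicate 1, and Npc1 also not with the replicate block. Npc2, the partner of Npc1, had a log2 difference Alt minus Ref of -0.70 (edgeR adjusted p = 0.236), which was -0.44 without Alt replicate 1 and -0.59 without Ref replicate 2, both short of an unadjusted p of 0.05.

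Of 11 genes of fatty acid synthesis and desaturation that SREBPs also control, 3 passed an unadjusted p of 0.05 in Alt versus Ctr, all higher in Alt, beside 9.45% of all genes. Without Alt replicate 1 the count was 1, Fasn. Fasn, the fatty acid synthase, was at 262, 217 and 283 CPM in Ctr, 354 and 305 CPM in Ref, and 502 and 351 CPM in Alt. Alt replicate 1 was again the highest library, and the log2 difference Alt minus Ctr was 0.75 (edgeR adjusted p = 0.120), or 0.44 with the length trend removed and 0.47 without Alt replicate 1. Acaca, which makes malonyl-CoA, had a log2 difference of 0.82, which was 0.30 with the length trend removed and 0.29 without Alt replicate 1. Elovl6, a fatty acid elongase, had 0.51 for Alt minus Ctr and 0.59 for Alt minus Ref, and 0.16 and 0.25 without Alt replicate 1. Its calls were also lost with the replicate block, in Alt versus Ctr without Ctr replicate 1 or 3, and in Alt versus Ref without Ref replicate 1. Scd2, the main brain desaturase, had 0.31 for Ref minus Ctr (edgeR adjusted p = 1), and missed an unadjusted p of 0.05 whichever Ctr or Ref library was left out. DESeq2 called Lrp1, Npc1, Fasn and Acaca in Alt versus Ctr, with adjusted p of 0.00519, 0.0390, 0.00510 and 0.0244.

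Markers of oligodendrocytes were read in the same libraries, since these cells make much of the cholesterol of myelin. The 10 markers, all tested, summed to 2347 to 3283 CPM in Ctr, 3934 to 4878 CPM in Ref and 2272 to 2805 CPM in Alt, with none at 0. In Alt versus Ctr 2 of 10 passed an unadjusted p of 0.05 with lower values in Alt (median log2 difference -0.13), beside 10.3% of all genes. With the length trend removed the count was 1 and the median 0.01, and with the replicate block the count was 1. Both Alt libraries lay below all others for 3 of 10, beside 13.1% of all genes. In Ref versus Ctr 7 of 10 passed an unadjusted p of 0.05 with higher values in Ref (median log2 difference 0.77), beside 2.19% of all genes, and in Alt versus Ref 7 of 10 with lower values in Alt (median -0.82), beside 8.83% of all genes. With the length trend removed, the count in Alt versus Ref was 5 of 10 and the median -0.51. Of the markers Mbp, a main protein of myelin, was the gene called in that comparison at an adjusted p of 0.05 (log2 difference -1.29, edgeR adjusted p = 0.0481). No gene was called there with RLE or upper quartile normalization, the replicate block, only the 2 groups compared or log2(FPKM + 0.1), nor without Alt replicate 1, Ref replicate 2 or any 1 of the Ctr libraries. The summed level of the 7 enzymes was 530 to 604 CPM in Ctr, 565 to 580 CPM in Ref and 583 to 626 CPM in Alt. Hmgcs1 was the largest part of this sum, with 293, 291 and 345 CPM on average in Ctr, Ref and Alt. Cyp51, the next largest, averaged 99.4, 94.5 and 77.2 CPM. The 7 astrocyte markers summed to 5348 to 6962 CPM in Ctr, 7337 to 8871 CPM in Ref and 8067 to 11351 CPM in Alt, a sum set mostly by Slc1a2, which averaged 4262, 5682 and 7746 CPM. Of the 7, Slc1a2 passed an unadjusted p of 0.05 in Alt versus Ctr with a higher value, beside 9.45% of all genes, and Aldoc with a lower one (489 and 363 CPM on average in Ctr and Alt), beside 10.3%, and the median log2 difference was 0.10. The lower call was lost with the length trend removed, with the replicate block, and without Alt replicate 1, Ref replicate 2 or any 1 of the Ctr libraries. In Ref versus Ctr 3 of the 7 passed with higher values in Ref (median 0.39), beside 2.19% of all genes, and 0 of 7 did with the replicate block or without Ctr replicate 3. Markers of oligodendrocyte precursors summed to 177 to 227 CPM in Ctr, 262 to 267 CPM in Ref and 243 to 287 CPM in Alt, and endothelial markers to 196 to 262, 276 to 314 and 296 to 349 CPM in the same order. Microglial markers summed to 296 to 339 CPM in Ctr, 354 to 357 CPM in Ref and 340 to 342 CPM in Alt. In the precursor and endothelial sums every Ref and Alt library lay above every Ctr library. In Alt versus Ctr the coefficient was above 0 for 4 of 6 precursor markers (median 0.32) and 5 of 5 endothelial markers (0.38), or 3 of 5 without Alt replicate 2. Of all genes, 52.1% had a coefficient below 0. The precursor median was 0.18 without Alt replicate 1, and the endothelial median was 0.11 without Alt replicate 2. With higher values in Alt, 2 of 6 and 1 of 5 passed an unadjusted p of 0.05, beside 9.45% of all genes. Without Ctr replicate 1 or 3 the precursor count was 1. The microglial sum was carried by Csf1r and Cx3cr1, and 4 of the 6 microglial markers had a coefficient below 0 (median -0.10), or 2 of 6 with the length trend removed. Of these C1qa averaged 19.1 CPM in Ctr and 8.95 CPM in Alt. It was the marker that passed an unadjusted p of 0.05 with a lower value, 1 of 6 beside 10.3% of all genes. Another 1 of the 6 passed with a higher value, beside 9.45% of all genes. The higher call was lost with no low-count filter and without Ctr replicate 1 or 2. Markers of mural cells summed to 240 to 296 CPM in Ctr, 259 to 331 CPM in Ref and 316 to 348 CPM in Alt. In tissue libraries fewer cells of a type and less RNA per cell cannot be told apart, and the part of cell makeup in the differences above was not tested.

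**Figure D5:**
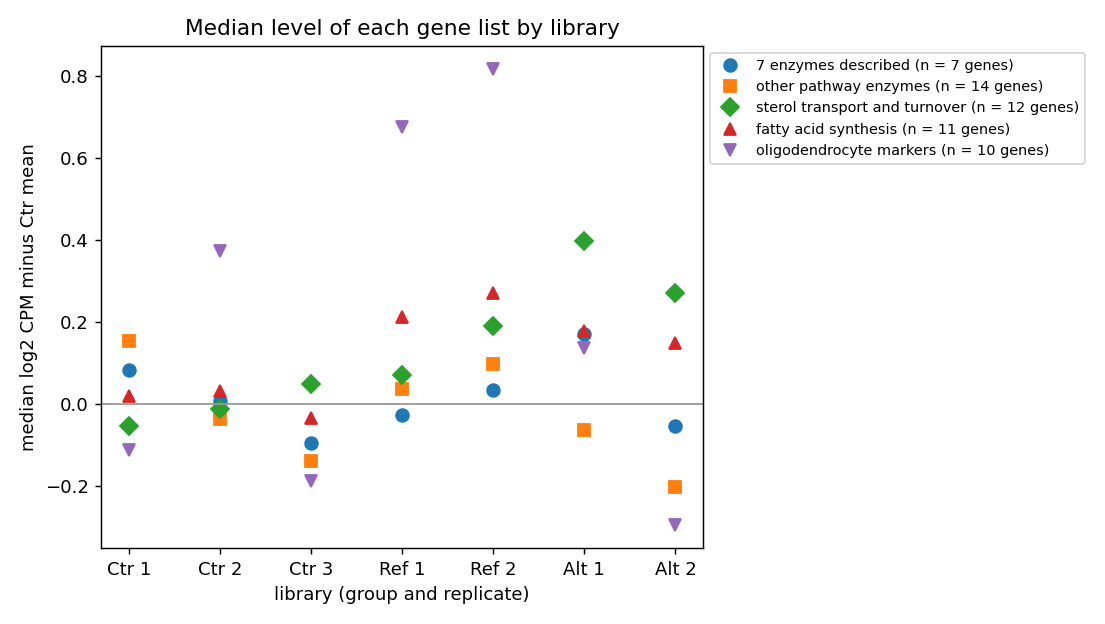
Median over the genes of each list of log2 CPM minus the Ctr mean (y axis) in each library (x axis). The 7 enzymes stay between -0.10 and 0.17, while oligodendrocyte markers reach 0.68 and 0.82 in the Ref libraries and transport genes 0.40 and 0.27 in the Alt libraries.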

How the data were processed

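RNA-seq of PFC tissue gave 7 libraries, grouped from the sample labels as Ctr (n = 3), Ref (n = 2) and Alt (n = 2). RNA was enriched with oligo(dT). The authors deposited 1 table with read counts per gene with TPM and FPKM values (both scaled to gene length and library size) for each library, with gene type, span and length. The submitters' processing notes name STAR and featureCounts without versions and the human build hg19, although the samples are mouse and the gene identifiers are those of mouse genes; strand and multi-mapping settings are not given in the sources used here.

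The deposited counts were tested with edgeR 4.0.16 in R 4.3.3 (filterByExpr by group, TMM factors, quasi-likelihood fit of the 3 group means on all 7 libraries, Benjamini-Hochberg over 17254 genes), with a 2nd fit of an ordered score. An enzyme was called at an adjusted p of 0.05, and an unadjusted p of 0.05 was counted beside the share of all genes passing it. Confidence intervals are at 95%. CPM used TMM-scaled totals, with a prior count of 2 in log2 CPM. Counts limit the precision of Fdps most. Alternatives were DESeq2 1.42.0, limma 3.58.1 (voom, and log2 of the deposited FPKM with a pseudocount of 1 or 0.1), other normalizations, other filters, removal of each library's length trend (loess, span 0.3), a replicate block, and leaving out each library. Promoters came from RefSeq tables and transcripts from GENCODE vM21 on GRCm38; the build of the deposited spans was not established, so the coordinates were kept apart.

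The enzymes and the gene lists were chosen with earlier results of these data known. Named outside the 7 enzymes were list genes past an unadjusted p of 0.05, at most 6 per list and comparison, and the 5 genes nearest to the members' mean, given for the mean without Fdps, a choice made after its low counts had been seen; the list for the mean of all 7 is not reported here. Summed marker levels are given for oligodendrocytes, their precursors, astrocytes, microglia, endothelial and mural cells, neurons, striatal neurons and choroid plexus.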

Additional observations from a re-analysis of the deposited data

How the results depend on the processing

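No enzyme of the 7 was called at an adjusted p of 0.05 under any of the 21 alternatives that gave it an adjusted p in a comparison between groups; Fdps had none with DESeq2 and was not tested with the stricter filter. The count of all genes called in Alt versus Ctr depended on the method: 0 in the fit reported, 1097 with DESeq2 and 1484 with no low-count filter, and in Alt versus Ref 1, 429 and 850; the cause was not tested. It also rested on Alt replicate 2, without which edgeR called 3451 genes in Alt versus Ctr and 2708 in Alt versus Ref, and 33.2% of all genes passed an unadjusted p of 0.05 in Alt versus Ctr; without Alt replicate 1 it called 0 in both, and 8.1% passed. Total count normalization and log2(FPKM + 0.1) moved the median of all genes in Alt versus Ctr to -0.16 and -0.14, against -0.03.

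At an unadjusted p of 0.05 the count of the 7 enzymes in Alt versus Ctr went from 0 to 1, Cyp51, under total count normalization, no low-count filter, the robust fit, the replicate block, the block with length correction, and both FPKM fits. Under these settings 12.5% to 21.3% of all genes passed. In Alt versus Ref it went to 1, Hmgcs1, under the length correction with and without the block, where 9.6% and 13.0% of all genes passed. In the ordered score it went to 1 under total count normalization, the replicate block with and without length correction, and both FPKM fits. There 11.8% to 17.6% of all genes passed. The other pathway enzymes went from 2 to 1 in Alt versus Ctr with only the 2 groups compared and with both FPKM fits, where 16.3% to 16.8% of all genes passed. In Alt versus Ref they went from 0 to 1 under total count normalization, no low-count filter and log2(FPKM + 1), where 12.4% to 16.0% passed. With log2(FPKM + 0.1) they went to 2, where 13.6% passed. Leaving out each library in turn gave 0 to 1 enzymes of the 7 in Alt versus Ctr and in the ordered score, and 0 to 2 (Alt versus Ctr) and 0 to 1 (Alt versus Ref) other enzymes. For libraries with equal replicate numbers, r of the deviations from the group means ran from -0.098 to 0.070. In a group of 2 the deviations mirror each other, so these values cannot decide whether the numbers pair the libraries. The block gave 2180 genes past an unadjusted p of 0.05 in Alt versus Ctr, against 3414 in the fit reported.

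Log2 differences near 0 changed sign. In Alt versus Ctr, Idi1 was -0.078, -0.066 and -0.072 under total count, log2(FPKM + 1) and log2(FPKM + 0.1), Fdps 0.11 with limma-voom and 0.028 with the length correction, and Lss -0.14 with the length correction and -0.25 with the block added. In Alt versus Ref, Fdps was -0.062 under total count, -0.10 with the replicate block and -0.0047 with log2(FPKM + 1), and Lss -0.071, -0.18, -0.18, -0.062 and -0.077 under total count, length correction, block with length correction, log2(FPKM + 1) and log2(FPKM + 0.1). In Ref versus Ctr, the length correction gave Sqle -0.041, and the block with it gave Sqle -0.051 and Lss -0.065. Per step of the score, Idi1 was -0.043, -0.037 and -0.040 under total count and the 2 FPKM fits, Fdps 0.040 with limma-voom and 0.0042 with the length correction, and Lss -0.065 with the length correction and -0.12 with the block added.

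With each library left out, Alt versus Ctr ran from -0.17 to 0.10 for Dhcr7, -0.46 to 0.65 for Fdps, -0.060 to 0.18 for Idi1 and -0.048 to 0.32 for Lss. Alt versus Ref ran from -0.63 to 1.21 for Fdps and -0.15 to 0.22 for Lss. It ran from -0.41 to -0.17 for Cyp51, -0.26 to -0.13 for Dhcr7 and 0.037 to 0.26 for Idi1. Ref versus Ctr ran from -0.19 to 0.014 for Cyp51, -1.30 to 0.63 for Fdps, -0.059 to 0.032 for Hmgcs1, -0.16 to 0.038 for Idi1 and -0.016 to 0.071 for Sqle. For Dhcr7 it ran from 0.026 to 0.30. The score ran from -0.086 to 0.051 for Dhcr7, -0.23 to 0.32 for Fdps and -0.044 to 0.091 for Idi1. It ran from 0.053 to 0.14 for Hmgcs1 and -0.24 to -0.11 for Cyp51. Where this left 1 library in a group, it was assumed to vary like the others. Depth limits Fdps most among the 7, with 9 to 39 counts.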
